A study of Homo sapiens with 4 samples.

Results

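The genes described here are 10 transcripts of the bone morphogenetic protein (BMP) response, taken by symbol from the 42169 gene rows of the count table. They are the 4 ID genes (ID1, ID2, ID3 and ID4), the inhibitory SMADs SMAD6 and SMAD7, the related SMAD9, the pseudoreceptor BAMBI, the ligand BMP4 and the receptor BMPR2. All 10 symbols had a row, and all 10 passed the filter on low counts and were tested. Their RNA was measured by RNA sequencing in Huh7, an established line from a human liver tumour, in a Brf1/TTP DKO line (clone 18) and in a control line labelled WT (clone 1), with 2 libraries of each. TTP, encoded by ZFP36, and BRF1, here the product of ZFP36L1, bind AU-rich elements in the 3′ ends of mRNAs and speed their decay. Both lines were kept in DMSO for 3 h and then given actinomycin D, a blocker of transcription, at 5 µg/ml for the last 10 min, so no library is free of either agent. Each genotype is a single clone, and an effect of the genotype cannot be told apart from any other difference between the 2 clones.

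BMP ligands bind a complex of type I and type II receptors, which phosphorylates SMAD1, SMAD5 and SMAD9, and these enter the nucleus with SMAD4. Among the genes that this switches on are the ID genes, whose products lack a DNA-binding region and hold E proteins away from DNA. SMAD6, SMAD7 and BAMBI are also induced and damp the signal. In hepatocytes the same route controls HAMP, the gene of the iron hormone hepcidin.

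None of the 10 genes passed the threshold in the DKO clone against the control clone. ID2, ID4 and BAMBI were higher in both DKO libraries than in both control libraries, at 1.32 to 1.50 times the control means, but their adjusted p-values were 0.111 or more. ID1, the most abundant of the set, had almost the same mean in the clones and differed far more between libraries of 1 clone. Among the other genes of the pathway, HAMP rose relative to the median gene: its mean in the DKO libraries was 4.74 times that in the control libraries.

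The libraries held gene counts of 10271428 and 16430228 for DKO and of 9685798 and 12507263 for control, and a count of 3 was worth 0.183 to 0.310 CPM (counts scaled to the same total of gene counts). The 11 markers of hepatocytes and hepatoma summed to 25493 to 29008 CPM in the DKO libraries and to 26925 to 27758 CPM in the control libraries, and all 11 averaged over 1 CPM. The sum covers opposite changes: APOH (log2 fold change 1.16, edgeR adjusted p = 0.00360) and TTR (0.78, edgeR adjusted p = 0.0297) rose, AFP fell (-1.13, edgeR adjusted p = 0.0159) and the other 8 did not pass. Of 5 endothelial markers, CDH5, VWF, KDR and STAB2 had no count in any library, and the 4 blood markers summed to at most 0.413 CPM. The 7 stellate and fibroblast markers summed to 140 to 142 CPM in DKO and to 95.5 to 143 CPM in control. The 4 bile duct markers summed to 475 to 607 CPM in DKO and to 529 to 762 CPM in control, so both sums overlapped between clones. These sums also cover opposite changes, although no marker of either list passed. LUM (0.75), PDGFRB (0.64) and SOX9 (0.42) were higher and COL3A1 (-0.73) and EPCAM (-0.53) lower in both DKO libraries than in both control libraries. In such bulk RNA, fewer cells with a transcript and less of it per cell cannot be told apart. The mRNAs of the targeted genes do not check the genotype, because the kind of mutation is not given: ZFP36 had 36.2 to 37.5 CPM in DKO libraries and 23.3 to 30.04 CPM in control libraries, and ZFP36L1 had 118 to 147 CPM in DKO libraries and 109 to 135 CPM in control libraries. Neither passed.

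The test was edgeR's quasi-likelihood test over 13359 genes, with Benjamini-Hochberg adjusted p-values and a threshold of 0.05. It called 0 of the 10 BMP response genes and 5.37% of all genes tested, 2.24% higher and 3.14% lower in DKO. Before adjustment, 3 of the 10 (ID2, BAMBI and BMPR2) were higher with an edgeR p under 0.05 and 0 were lower, against 20.2% of all genes tested, 9.57% higher and 10.6% lower. DESeq2 and limma-voom also called 0 of the 10, and 5.18% and 5.25% of all genes. ID2, BAMBI and BMPR2 passed once smooth trends with GC content and gene length had been taken out, in a fit that called 15.4% of all genes. In CPM, 3 of the 10 had every DKO library above every control library, 0 had every DKO library below and 7 overlapped. Such separation was seen for 49.9% of all genes tested, 23.7% above and 26.2% below, so the count of 3 is near that background. Fits without control replicate 1 called 15.6% of all genes and those without control replicate 2 called 5.35%, against which the calls given below for single genes under these fits stand. The median log2 fold change (DKO over control) was 0.07 over the 10 genes and 0.00 over all genes tested. With 2 libraries a group, an exact permutation test of a single gene cannot give a 2-sided p below 0.333.

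**Figure D1:**
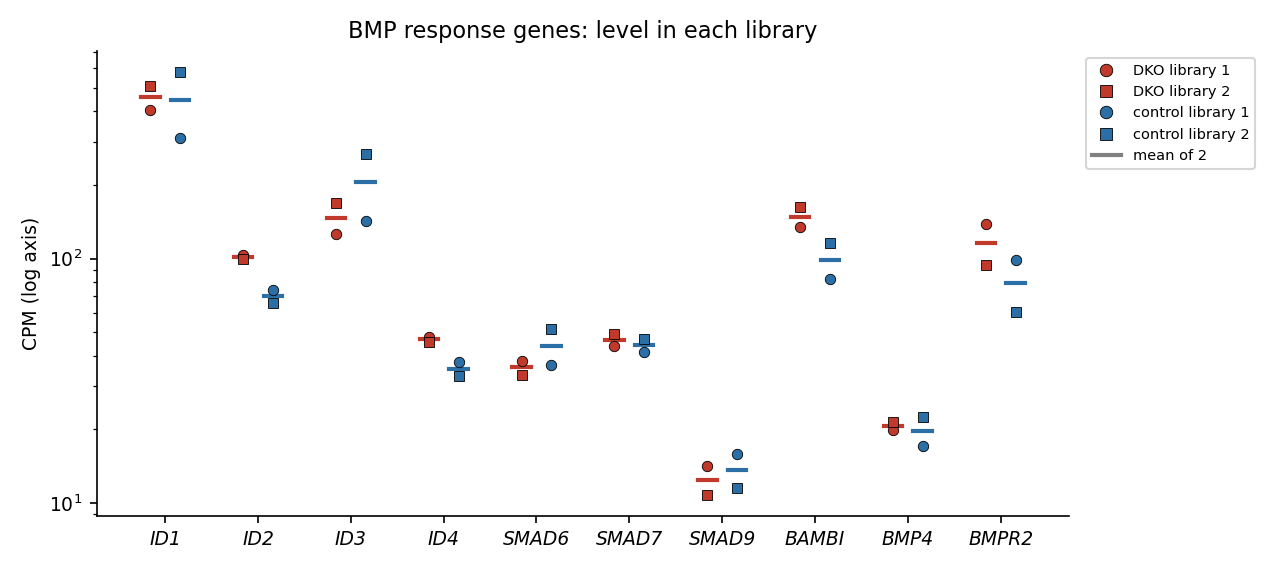
Level of each of the 10 genes in CPM (vertical log axis) in the 2 DKO libraries (red) and the 2 control libraries (blue), with circles for library 1, squares for library 2 and bars for the mean of 2. ID2, ID4 and BAMBI have both DKO points above both control points, whereas the control points of ID1, at 311 and 580 CPM, lie on either side of its DKO points.

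BMP4, the ligand of the set, had 19.9 and 21.4 CPM in the DKO libraries, against 17.1 and 22.4 CPM in the control libraries. The DKO values lay between the control values. The log2 fold change of BMP4 was 0.07 (SE 0.23, 95% interval -0.42 to 0.56, edgeR adjusted p = 0.907). BMP4 lies on chromosome 14 (53949736 to 53958761, minus strand, hg38).

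BMPR2 encodes the type II receptor of the BMP pathway. It had 138 and 94.2 CPM in the DKO libraries, against 98.8 and 60.3 CPM in the control libraries. The higher control library lay just above the lower DKO library, so the clones overlapped. The log2 fold change was 0.56 (SE 0.24, 95% interval 0.05 to 1.07, edgeR adjusted p = 0.202). This difference moved with whichever library was left out: it was 0.91 without control replicate 1 and 0.26 without control replicate 2. It was 0.79 without DKO replicate 2 and 0.29 without DKO replicate 1. Each of these fits leaves 1 library in a clone, so only the sizes of the difference are given here for BMPR2. BMPR2 spans 202376936 to 202567751 of chromosome 2.

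BAMBI encodes a membrane protein that resembles a type I receptor but has no kinase, and so blocks signalling. It had 135 and 162 CPM in the DKO libraries, against 82.4 and 116 CPM in the control libraries. Every DKO library was above every control library. The log2 fold change was 0.59 (SE 0.22, 95% interval 0.12 to 1.06, edgeR adjusted p = 0.136), the highest of the 10. Without control replicate 2 it was 0.89 and passed (edgeR adjusted p = 0.0104), and without control replicate 1 it was 0.34 (edgeR adjusted p = 0.347). BAMBI lies on chromosome 10 (28677342 to 28682939).

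SMAD6 and SMAD7 encode the inhibitory SMADs, which compete for receptors and bring in ubiquitin ligases. SMAD6 had 38.3 and 33.5 CPM in the DKO libraries, against 36.7 and 51.3 CPM in the control libraries. The clones overlapped, and the high value was that of control library 2. Its log2 fold change was -0.29 (SE 0.22, 95% interval -0.76 to 0.17, edgeR adjusted p = 0.489), and it was 0.00086 without control replicate 2. SMAD7 had 43.8 and 49.1 CPM in the DKO libraries, against 41.4 and 47.0 CPM in the control libraries. The 4 SMAD7 values lay closer together than those of SMAD6 and overlapped between clones. SMAD7 had a log2 fold change of 0.08 (SE 0.20, 95% interval -0.34 to 0.51, edgeR adjusted p = 0.870). The ratio of SMAD6 to SMAD7 counts was 0.873 and 0.682 in the DKO libraries and 0.885 and 1.09 in the control libraries. Both DKO ratios were therefore lower, by a margin smaller than the spread within either clone. SMAD6 lies on chromosome 15 (66702228 to 66782848) and SMAD7 on chromosome 18 (48919853 to 48952052, minus strand).

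SMAD9 encodes the third SMAD that BMP receptors phosphorylate, a weaker activator than SMAD1 and SMAD5. It was the least abundant of the 10, with 14.1 and 10.8 CPM in the DKO libraries, against 15.9 and 11.5 CPM in the control libraries. The clones overlapped, and the log2 fold change was -0.13 (SE 0.25, 95% interval -0.66 to 0.41, edgeR adjusted p = 0.833). SMAD9 lies on chromosome 13 (36844831 to 36920765, minus strand).

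Among the ID genes, ID1 had 404 and 510 CPM in the DKO libraries, against 311 and 580 CPM in the control libraries. Both DKO values lay inside the range of the control values. For ID1 the log2 fold change was 0.04 (SE 0.27, 95% interval -0.53 to 0.61, edgeR adjusted p = 0.954). The sign turned with single libraries: it was -0.37 without control replicate 1 and 0.59 without control replicate 2, with no pass in either. ID1 lies on chromosome 20 (31605283 to 31606515).

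ID3, whose product like that of ID1 is best known for its part in vessel growth, had 126 and 168 CPM in the DKO libraries, against 143 and 269 CPM in the control libraries. The clones overlapped, with control library 2 the highest of the 4. The difference was -0.48 on the log2 scale (SE 0.27, 95% interval -1.05 to 0.09, edgeR adjusted p = 0.336). Without control replicate 1 it was -0.89 and passed (edgeR adjusted p = 0.00220), and without control replicate 2 it was 0.08. ID3 lies on chromosome 1 (23557918 to 23559794, minus strand).

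ID2 had 104 and 99.2 CPM in the DKO libraries, against 74.4 and 65.6 CPM in the control libraries. The DKO values were above the control values, and the libraries of each clone lay close together. The log2 fold change was 0.55 (SE 0.19, 95% interval 0.14 to 0.95, edgeR adjusted p = 0.111). It varied little between fits without 1 library, from 0.48 to 0.60, and passed in none of them. ID2 lies on chromosome 2 (8678845 to 8684453), where its exons share 38 bases with those of the antisense RNA ID2-AS1. That RNA had 8 and 15 counts in the DKO libraries and 8 and 17 in the control libraries, against 721 to 1630 counts for ID2, and how strand was handled in counting is not stated.

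ID4 had 47.9 and 45.5 CPM in the DKO libraries, against 37.7 and 33.1 CPM in the control libraries, again with no overlap. Its log2 fold change was 0.41 (SE 0.20, 95% interval -0.0025 to 0.83, edgeR adjusted p = 0.251), with a range of 0.34 to 0.47 over the fits without 1 library. ID4 lies on chromosome 6 (19837386 to 19840684).

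**Figure D2:**
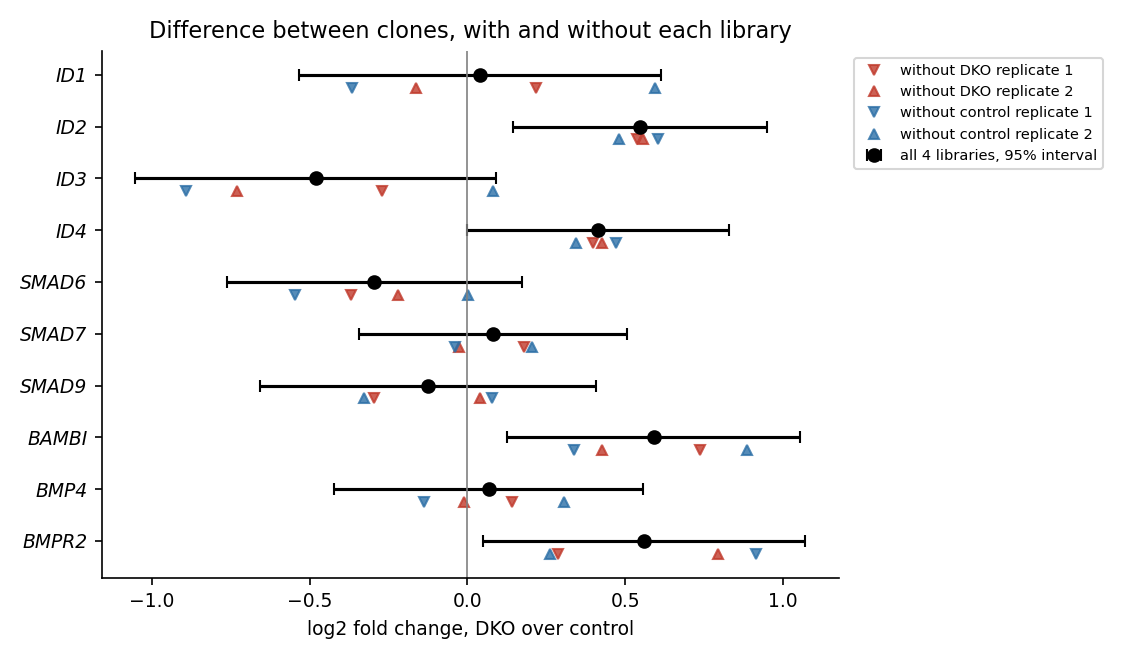
Log2 fold change of DKO over control (horizontal axis) for each of the 10 genes: black points with 95% intervals use all 4 libraries, and triangles below them leave out 1 library (red, a DKO library; blue, a control library). The triangles of ID2 and ID4 stay together, while those of ID1 reach from -0.37 to 0.59.

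The ID genes varied in pairs within a clone. The ratio of ID1 to ID3 counts was 3.21 and 3.04 in the DKO libraries, against 2.18 and 2.16 in the control libraries, although ID1 itself differed by 0.90 on the log2 scale between the control libraries. The log2 ratio was 0.53 higher in DKO, and its widest range within a clone was 0.08. For ID2 over ID4 the widest range within a clone was 0.0096, with a geometric mean ratio of 2.17 in DKO and 1.98 in control. These pairs were picked after the values were seen, as the 2 of 45 pairs with the narrowest range within a clone. Of the 45 pairs, 22 had ratios that did not overlap between clones, and no test was run on them. The share over pairs of all genes was not computed, so this count does not set these genes apart. Levels of single genes, a different measure from ratios of pairs, did not overlap between clones in 49.9% of all genes tested.

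Per kilobase of annotated exon, ID1 was the most abundant, with 371 ± 61.0 CPM per kb in DKO and 361 ± 154 in control (SD, n = 2 each). It made up 70.4% and 72.4% of the summed ID1 to ID4 level per kb in the DKO libraries and 66.1% and 70.9% in the control libraries. ID3 took 15.1% and 16.4% in the DKO libraries and 20.8% and 22.5% in the control libraries. The order continued in both clones with ID3 (81.8 ± 16.6 CPM per kb in DKO, 114 ± 49.5 in control), BAMBI (64.1 ± 8.33 and 42.8 ± 10.2), ID2 (46.0 ± 1.44 and 31.7 ± 2.85) and ID4 (19.9 ± 0.716 and 15.1 ± 1.38). BMPR2 and SMAD7 followed, at 9.76 ± 2.61 and 9.23 ± 0.737 CPM per kb in DKO and at 6.68 ± 2.29 and 8.78 ± 0.788 in control, and their libraries overlapped in each clone. BMP4, SMAD6 and SMAD9 closed the order, with SMAD9 at 2.18 ± 0.406 CPM per kb in DKO and 2.40 ± 0.542 in control. In the control libraries BMPR2 overlapped BMP4 and SMAD6 too, and BMP4 overlapped SMAD6, so the order of these 3 is not resolved there.

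Libraries with the same number differed alike in both clones. In log2 CPM, library 2 exceeded library 1 for ID1 by 0.34 in DKO and 0.90 in control, for ID3 by 0.42 and 0.91, and for BAMBI by 0.27 and 0.49. It was lower for BMPR2, at -0.55 in DKO and -0.71 in control, and for SMAD9, at -0.38 and -0.47. SMAD6 alone of the 10 had opposite signs, at -0.19 in DKO and 0.49 in control. The median gene differed by -0.03 in DKO and -0.06 in control. Genes of the mitochondrial genome took 3.59% and 1.16% of counts in DKO libraries 1 and 2 and 2.53% and 0.448% in control libraries 1 and 2, so their share moved with the library number too; its part in these differences was not tested.

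**Figure D3:**
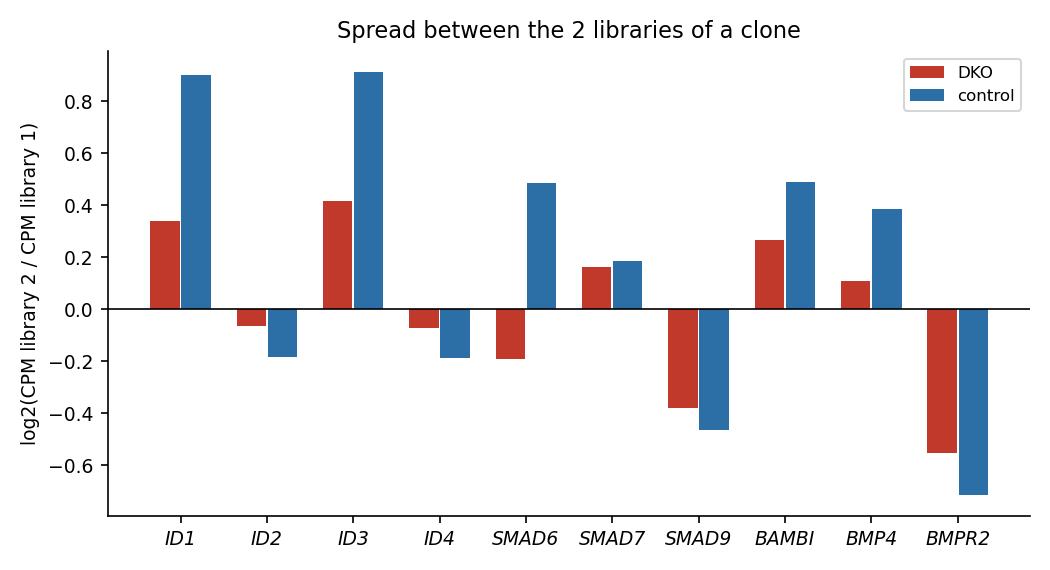
Log2 ratio of CPM in library 2 over library 1 (vertical axis) inside the DKO clone (red) and inside the control clone (blue) for each of the 10 genes. ID1 and ID3 are higher and BMPR2 and SMAD9 lower in library 2 of both clones.

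The proteins knocked out in the DKO clone bind the site UAUUUAU. Written as TATTTAT, it was found in the longest annotated 3′ UTR of 4 of the 10 genes: 4 times in BMPR2, 2 times in ID2 and 1 time each in SMAD6 and SMAD7. It was absent from those of ID1, ID3, ID4, SMAD9, BAMBI and BMP4. Of all tested genes with such a UTR, 36.1% held it. The 8 sites follow, 5′ to 3′ in DNA letters from GENCODE 29 transcripts, to show how the surrounding bases differ, with the motif in capitals.
BMPR2 (chr2:202564191-202564217, plus strand): ccttttttcaTATTTATggacatgaat
BMPR2 (chr2:202566189-202566215, plus strand): ttatccatttTATTTATacctttagat
BMPR2 (chr2:202566745-202566771, plus strand): aaataacctgTATTTATcacattgtca
BMPR2 (chr2:202567024-202567050, plus strand): tggccacattTATTTATttaagcaatt
ID2 (chr2:8683876-8683902, plus strand): tgatattcgtTATTTATgaaaaagact
ID2 (chr2:8684115-8684141, plus strand): gctgtgtataTATTTATatataaatat
SMAD6 (chr15:66781727-66781753, plus strand): acaatgtaatTATTTATgtatggtgca
SMAD7 (chr18:48920039-48920065, minus strand): taagcatcatTATTTATgtattgtgca
The windows of SMAD6 and SMAD7 were the most alike of all pairs, with 20 of 27 positions identical and an unbroken run of 13. Both numbers include the motif itself, which all 8 windows share, and the other pairs had 9 to 16 identical positions. Of these 8 sites, the last BMPR2 site alone has T on each side of the motif. The median log2 fold change was 0.31 over the 4 genes with the motif and 0.05 over the 6 without it, against 0.04 and -0.03 over all tested genes with and without it. Within the 4, ID2 (0.55) and BMPR2 (0.56) were positive while SMAD6 (-0.29) was negative, and BAMBI, with the highest value of the 10, lacks the motif. The match is one of letters in an annotated UTR, and no binding was measured.

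In the RefSeq promoters of the 10 genes (GRCh38.p14, 250 bases before to 50 after the start, 14 promoters in all), the BMP response letters GGCGCC were present in 3 promoters (21.4%), those of BAMBI, BMPR2 and 1 of the 3 of BMP4, against 19.2% of all promoters. The SMAD-binding letters GTCTG, on either strand, were present in 10 of the 14 (71.4%), against 45.3% of all promoters; SMAD7 and BMP4 each have 3 of the 14, so these are not separate genes. None of the 4 ID promoters held GGCGCC in this window.

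The rest of the BMP pathway was followed with 66 listed genes, of which 45 were tested. HAMP passed as higher in DKO, 0 passed as lower and 44 did not pass. Of all genes tested, 2.24% passed as higher and 3.14% as lower, so 1 call among the 45 is near that background. Before adjustment 5 were higher and 4 lower with an edgeR p under 0.05, where 9.57% and 10.6% of all genes tested were, and the list's median log2 fold change was 0.11, against 0.00 over all genes tested. Every DKO library was above every control library for 14 of the 45 and below for 9, where 23.7% and 26.2% of all genes tested were.

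**Figure D4:**
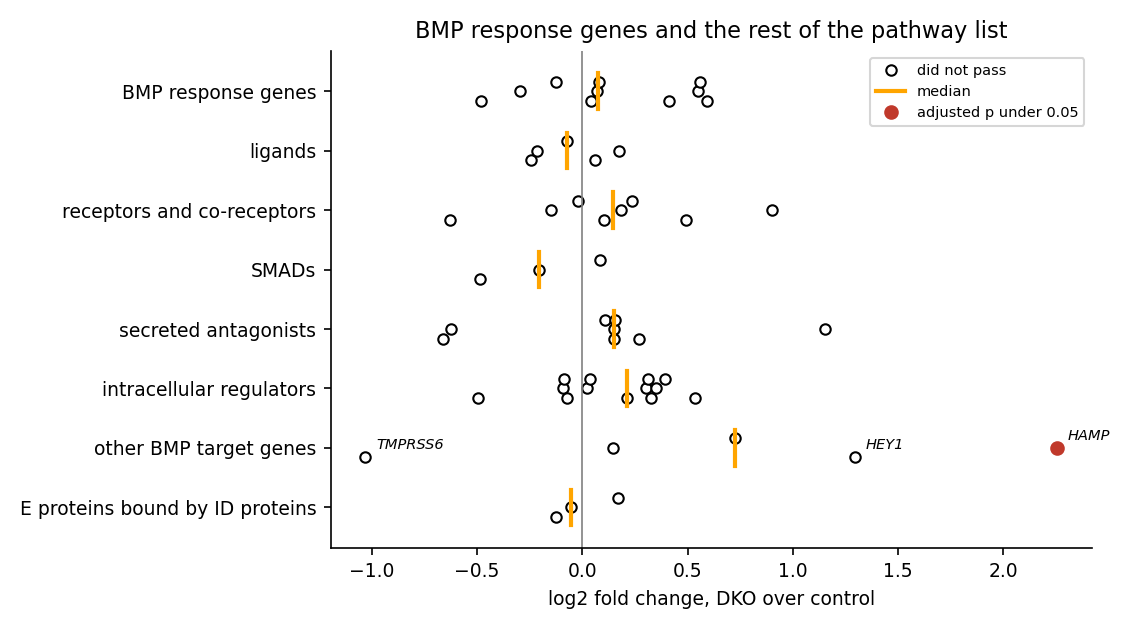
Log2 fold change of DKO over control (horizontal axis) for the 10 BMP response genes and for the tested genes of each other group of the pathway, with the group's median in orange and genes past the threshold filled. HAMP, at 2.26, is the filled point, while TMPRSS6, at -1.03, stands at the other end of the same group.

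HAMP encodes hepcidin, which lowers iron export from cells and is the best-known hepatic target of BMP signalling. It had 9.93 and 7.91 CPM in the DKO libraries, against 2.17 and 1.599 CPM in the control libraries. These levels rest on 102 and 130 counts in the DKO libraries and on 21 and 20 in the control libraries, and the clones did not overlap. HAMP rose by a log2 fold change of 2.26 (SE 0.32, 95% interval 1.58 to 2.93, edgeR adjusted p = 0.000887). In the fits without 1 library the value ran from 2.06 to 2.44 and passed in each. With ERCC spike-in totals as library sizes it was 1.62 and did not pass (edgeR adjusted p = 0.101). The median gene shifted by -0.68 under that scaling, and relative to that shift HAMP stood at 2.30. Spike-ins took 1.62% and 2.10% of counts in DKO libraries 1 and 2 and 1.47% and 0.946% in control libraries 1 and 2. Their share thus differed between clones mainly in the libraries numbered 2. HAMP lies on chromosome 19 (35280716 to 35285143, plus strand), and its 50 neighbours had a median log2 fold change of -0.04.

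The 3′ UTR of HAMP, 101 bases long, holds TATTTAT 1 time, and the site is printed since HAMP is the pathway gene that passed, with the motif in capitals.
HAMP 3′ UTR (chr19:35285068-35285094, plus strand): ctcccttcctTATTTATtcctgctgcc
Like the last BMPR2 site, the HAMP site has T on each side of the motif, which was not scored for the other pathway genes. The motif itself is not particular to HAMP among the pathway genes described below. It was also found for BMP2 (log2 fold change 0.18), RUNX2 (0.72), TCF4 (0.17), ACVR2B (-0.63), FST (-0.66) and CTDSPL (-0.50), so with both signs. The longest annotated 3′ UTRs of TMPRSS6, HJV, BMP6, HEY1, GATA2 and SMAD1 lack it. The counts do not separate synthesis from decay of the RNA.

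TMPRSS6, HJV and BMP6, the 3 genes described next for their part in hepcidin control, did not pass. They were picked from the pathway list after their values were seen, and regulators of hepcidin outside that list are not described. Beside HAMP, the hepatocyte markers APOH and TTR were higher and AFP lower, as given above, and their part in the HAMP result was not tested. TMPRSS6, a protease that cleaves hemojuvelin and so lowers HAMP, had 3.50 and 5.11 CPM in the DKO libraries, against 6.92 and 11.0 CPM in the control libraries. Its log2 fold change was -1.03 (SE 0.32, edgeR adjusted p = 0.0726). It passed when control replicate 1 was left out (-1.34, edgeR adjusted p = 0.000356) and with ERCC totals (-1.82, edgeR adjusted p = 0.0391; -1.14 relative to the shift of the median gene), but not without control replicate 2 (-0.62). The fit with ERCC totals called 2.46% of all genes tested, 307 genes lower and 22 higher, so most of its calls were lower. HJV, the gene of the co-receptor hemojuvelin, listed under its older symbol HFE2, had 1.85 and 1.70 CPM in the DKO libraries, against 1.03 and 0.879 CPM in the control libraries. Its log2 fold change was 0.90 (SE 0.44, edgeR adjusted p = 0.262) and rests on 10 to 28 counts a library. BMP6, the ligand that signals iron load in liver, had 0.389 and 1.03 CPM in DKO libraries, against 0.723 and 1.04 CPM in control libraries, from 4 to 17 counts each.

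**Figure D5:**
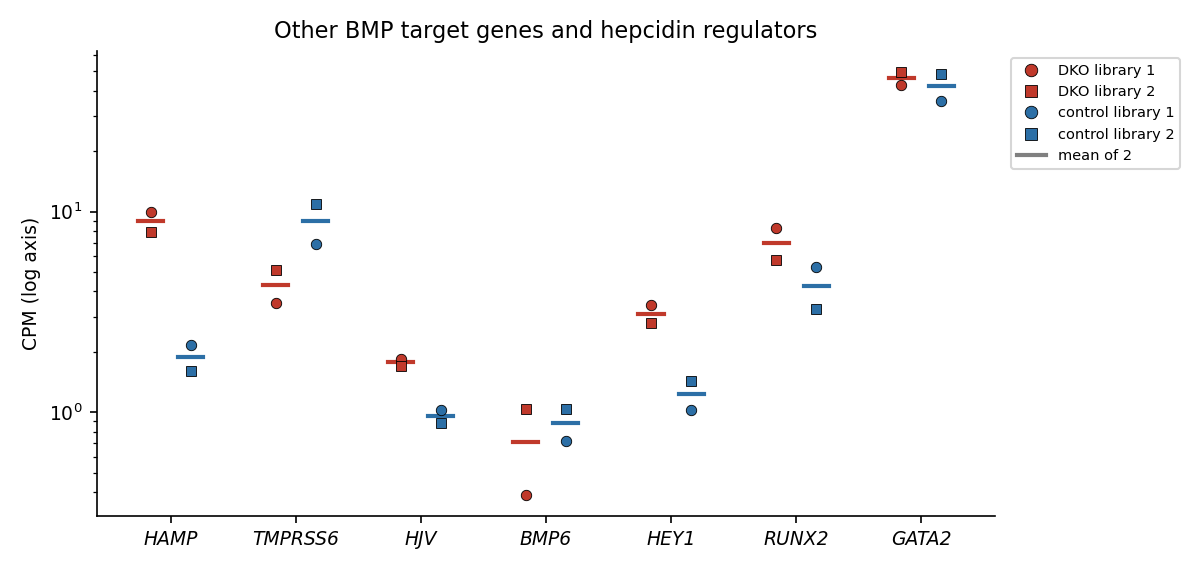
Level in CPM (vertical log axis) of HAMP, of its regulators TMPRSS6, HJV and BMP6, and of the other BMP target genes HEY1, RUNX2 and GATA2, in the DKO libraries (red) and the control libraries (blue), with bars for the mean of 2. HAMP, HJV, HEY1 and RUNX2 are higher and TMPRSS6 lower in both DKO libraries than in both control libraries, while BMP6 and GATA2 overlap. Of these genes only HAMP passed.

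Of the 9 other BMP target genes listed, 5 were tested, and HAMP alone passed. HEY1, RUNX2 and GATA2 were also picked for description after their values were seen. HEY1, a transcriptional repressor, had 3.41 and 2.80 CPM in the DKO libraries, against 1.03 and 1.44 CPM in the control libraries (log2 fold change 1.30, SE 0.39, edgeR adjusted p = 0.0708). HEY1 passed with no filter on low counts (1.31, edgeR adjusted p = 0.0180) and once GC and length trends were taken out (1.22, edgeR adjusted p = 0.0459), as did TMPRSS6 (-1.02, edgeR adjusted p = 0.00838, and -0.85, edgeR adjusted p = 0.0305). The fit with no filter called 5.39% of its 22155 genes, and the fit with trends taken out called 15.4% of its genes. RUNX2, a transcription factor of bone formation, had 8.28 and 5.72 CPM in DKO libraries, against 5.27 and 3.28 CPM in control libraries (0.72, SE 0.31, edgeR adjusted p = 0.210), and leaving out control replicate 1 made it pass (1.04, edgeR adjusted p = 0.0288). GATA2 overlapped between clones, with a log2 fold change of 0.14 (edgeR adjusted p = 0.772). The 4 targets not tested, ATOH8, MSX1, MSX2 and DLX5, did not pass the filter on low counts.

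Of 12 other ligands, 5 were tested and 0 passed. BMP2 was the leading ligand by adjusted p, with 338 and 379 CPM in the DKO libraries, against 300.03 and 339 CPM in the control libraries (log2 fold change 0.18, SE 0.20, edgeR adjusted p = 0.679). Of 11 receptors and co-receptors, 8 were tested and 0 passed. ACVR2B, a type II receptor for activins and BMPs, had 80.9 and 66.4 CPM in the DKO libraries, against 114 CPM in each control library (-0.63, SE 0.19, edgeR adjusted p = 0.0742), and leaving out control replicate 1 made it pass (-0.67, edgeR adjusted p = 0.0275).

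SMAD1, SMAD4 and SMAD5 did not pass, and SMAD1 led with 10.5 and 9.68 CPM in the DKO libraries, against 13.1 and 15.2 CPM in the control libraries (-0.48, SE 0.24, edgeR adjusted p = 0.273). Of 15 secreted antagonists, 8 were tested and 0 passed. FST, which encodes the activin and BMP trap follistatin, had 95.02 and 91.5 CPM in the DKO libraries, against 139 and 157 CPM in the control libraries (-0.66, SE 0.19, edgeR adjusted p = 0.0581); DESeq2 called it (-0.67, DESeq2 adjusted p = 0.0305), and it passed without control replicate 1 (-0.78, edgeR adjusted p = 0.00729). All 13 intracellular regulators were tested and 0 passed, led by the phosphatase gene CTDSPL (-0.50, SE 0.19, edgeR adjusted p = 0.152). ACVR2B, FST and CTDSPL lie among genes that were lower as well, with neighbour medians of -0.48, -0.51 and -0.46. ACVR2B (38453851 to 38493142) and CTDSPL (37861960 to 37984469) lie close together on chromosome 3 and share 42 of these 50 neighbours, while FST lies on chromosome 5 (53480409 to 53487134). With GC and length trends taken out, ACVR2B (-0.54, edgeR adjusted p = 0.0125), FST (-0.78, edgeR adjusted p = 0.00405) and CTDSPL (-0.47, edgeR adjusted p = 0.0247) passed, and FST also did with no filter (-0.65, edgeR adjusted p = 0.0475). The E proteins TCF3, TCF4 and TCF12, the partners that ID proteins hold, did not pass and overlapped between clones, with TCF4 leading at 0.17 (SE 0.21, edgeR adjusted p = 0.708).

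The neighbours of the 10 BMP response genes gave medians between -0.21 (ID3) and 0.21 (SMAD9), from 50 genes each, or 36 for ID2. With ERCC totals, and taken relative to the median gene, ID2 (0.56), ID4 (0.43), BAMBI (0.52) and BMPR2 (0.66) were positive and ID3 (-0.60) and SMAD6 (-0.33) negative, while as they stood all 10 were negative under that scaling, from -1.28 for ID3 to -0.02 for BMPR2.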

How the data were processed

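RNA of 4 Huh7 libraries was measured: 2 of a Brf1/TTP DKO clone and 2 of a control clone, grouped by their titles. Per the labels' protocols, ERCC spike-in RNA was added to 1 µg of total RNA before ribosomal RNA depletion, the library kit keeps the strand, and single reads of 80 bases were taken. The authors deposited whole-number counts per gene that had not been normalized. Alignment to hg38 with STAR 2.5.3a, counting with featureCounts (Subread 1.6.3) and use of DESeq2 are read from the submitters' processing notes, which give no order; annotation and strand setting are not stated.

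The table had 42261 rows, of which 92 spike-in rows were left out of library sizes and tests. Genes were kept by filterByExpr, scaled by TMM factors and tested in R 4.3.3 with edgeR 4.0.16 (quasi-likelihood, group as the only term), with p-values adjusted over all 13359 genes. Standard errors were worked back from each log2 fold change and the F statistic of its test, and the 95% intervals use them with the t distribution. Alternatives used DESeq2 1.42.0, limma 3.58.1 (voom), other scalings, filters, trend removal and left-out libraries. The fit was tested on simulated data. Symbols were matched to GENCODE 29 (hg38), with 40718 rows matching 1 gene, and exon lengths, UTRs and neighbours come from it. Chi-square per degree of freedom between libraries of a clone was 27.1 in DKO and 33.6 in control, over genes with at least 10 counts, so neither clone held the same library under both numbers. Whether the libraries of a clone were separate cultures is not said in the labels; the p-values cover the spread between these libraries only, and it may be technical. Reads carried no molecular identifiers. Named were all 10 genes and, of the pathway list, each gene past the threshold and the leading tested gene of each group. HEY1, RUNX2, GATA2, TMPRSS6, HJV and BMP6 were added after their values were seen. The rule also asked for genes with the pattern most like a member that passed, and no member passed. The genes and lists were chosen with earlier results of these data known.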

Additional observations from a re-analysis of the deposited data

How the results depend on the processing

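The fits with RLE factors, DESeq2, limma-voom and a mean of at least 1 CPM kept 0 of the 10 BMP response genes called and between 692 and 742 genes called in all, near the 718 (299 higher, 419 lower) of the main setting; DESeq2 called 1 pathway gene lower (FST) in place of 0. Without a filter, 1194 genes passed (561 higher, 633 lower), which was 5.39% of the 22155 genes tested in that fit. They held 0 of the 10, and 2 higher and 2 lower of the pathway list. ERCC totals as library sizes gave 329 genes (22 higher, 307 lower), or 2.46% of genes tested, with 0 of the 10, and 0 higher and 1 lower of the pathway list. Under it the signs turned for ID1 (-0.75), ID2 (-0.12), ID4 (-0.25), SMAD7 (-0.64), BAMBI (-0.16), BMP4 (-0.66), BMPR2 (-0.0187), BMP2 (-0.54), TCF4 (-0.46) and GATA2 (-0.60), with the median gene at -0.68. With trends over GC content and length removed, 2052 genes passed (990 higher, 1062 lower; 15.4% of genes tested). ID2 (0.49, edgeR adjusted p = 0.0332), BAMBI (0.52, edgeR adjusted p = 0.0403) and BMPR2 (0.51, edgeR adjusted p = 0.0233) were then among them, 3 of the 10 higher and 0 lower, as were 5 pathway genes higher and 4 lower. With the replicate number as a block, 4021 genes passed (1998 higher, 2023 lower; 30.1%), with 4 of the 10 higher (ID2, ID4, BAMBI and BMPR2), 1 lower (ID3), and 9 higher and 5 lower of the pathway list. The labels state no pairing, the groups share numbers only, and the correlation across genes between deviations of libraries with one number was 0.470. Leaving out 1 library gave 218 to 2172 genes (105 to 1028 higher, 107 to 1144 lower), 0 to 1 of the 10 higher, 0 to 1 lower, and 1 to 3 higher and 0 to 3 lower of the pathway list. Signs turned in some of these fits for ID1 (-0.37 to 0.59), ID3 (-0.89 to 0.0818), SMAD6 (-0.55 to 0.00086), SMAD7 (-0.0404 to 0.20), SMAD9 (-0.33 to 0.0769), BMP4 (-0.14 to 0.31), BMP6 (-1.19 to 0.24) and GATA2 (-0.0920 to 0.42). The causes were not tested.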
